A study of Mus musculus with 24 samples.

Results

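Fgf21, the hormone encoded by 1 gene, and 6 genes of the receptor system it acts through were examined in mouse liver. The members were Fgf21, the related ligand Fgf1, the coreceptor Klb (beta-Klotho) and the receptor tyrosine kinases Fgfr1, Fgfr2, Fgfr3 and Fgfr4. They were chosen by name: every non-control probe of the array annotated to 1 of these 7 genes was taken, which gave 18 of 56605 probes and 7 of 37074 genes. Of the 18 probes, 15 gave enough signal to be tested, among 32037 tested in all. Fgf21, Klb, Fgfr2 and Fgfr4 kept all their probes (1, 2, 2 and 3), as did Fgf1 (3), while Fgfr1 kept 2 of 4 and Fgfr3 kept 2 of 3.

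Livers came from 24 male C57Bl/6J mice, with 1 single-colour array for each mouse and 6 mice in each of 4 groups. The series title gives the 2 genotypes by whether hepatocytes have PPARα, which LWT livers carry and LKO livers lack. PPARα is a nuclear receptor that is activated by fatty acids and switches on genes of fatty acid use. The driver of the deletion and the deleted part of the gene are not stated in the labels. The agonist groups, labelled Beta3, received CL316243, a selective agonist of the beta3 adrenergic receptor, by gavage at 3 mg/kg and Zeitgeber time 10 h (hours after lights on). Vehicle groups received the carrier shared by all 24 mice, 0.5% carboxymethyl cellulose in water. All mice ate standard diet freely and were killed at Zeitgeber time 16 h, in the dark phase. The comparisons ask what the agonist does to these genes in each genotype, whether that effect depends on hepatocyte PPARα, and how the genotypes differ with and without the agonist.

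FGF21 is a circulating member of the fibroblast growth factor family, made chiefly by the liver and induced there by fasting through PPARα. It binds weakly to heparan sulfate and signals through an FGF receptor, mainly FGFR1, only where beta-Klotho is present. Hepatocytes carry beta-Klotho together with FGFR4, the pair through which the intestinal hormone FGF15 restrains bile acid synthesis. The beta3 adrenergic receptor is found mainly on fat cells, where its activation releases fatty acids.

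The promoters of Fgf21, Klb and Fgfr4 are shown because they encode the hormone, its coreceptor and the main FGF receptor of hepatocytes. Each window runs from 250 bases before to 50 bases after the annotated transcription start (RefSeq, build GRCm38.p6). Windows were available for 5 of the 7 members, 6 windows in all; Fgf1 and Fgfr1 had none. The Fgf21 window lies at chr7:45615441-45615740 on the minus strand. Its capitals mark, in order, a C/EBP-ATF composite element, the sequence class bound by ATF4 and its partners, then an E-box, and a TATA element.
Fgf21: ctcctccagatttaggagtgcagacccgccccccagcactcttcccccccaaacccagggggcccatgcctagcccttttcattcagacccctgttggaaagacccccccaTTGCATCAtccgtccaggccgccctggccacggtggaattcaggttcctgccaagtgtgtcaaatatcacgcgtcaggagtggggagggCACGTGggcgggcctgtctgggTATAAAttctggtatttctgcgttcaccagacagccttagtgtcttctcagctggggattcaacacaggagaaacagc
The Klb window lies at chr5:65348161-65348460 and the Fgfr4 window at chr13:55152568-55152867, both on the plus strand.
Klb: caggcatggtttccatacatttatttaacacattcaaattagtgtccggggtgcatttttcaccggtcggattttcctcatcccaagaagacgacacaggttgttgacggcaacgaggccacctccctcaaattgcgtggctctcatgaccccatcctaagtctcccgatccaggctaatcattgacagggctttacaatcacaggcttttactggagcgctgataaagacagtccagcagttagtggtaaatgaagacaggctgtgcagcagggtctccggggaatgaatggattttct
Fgfr4: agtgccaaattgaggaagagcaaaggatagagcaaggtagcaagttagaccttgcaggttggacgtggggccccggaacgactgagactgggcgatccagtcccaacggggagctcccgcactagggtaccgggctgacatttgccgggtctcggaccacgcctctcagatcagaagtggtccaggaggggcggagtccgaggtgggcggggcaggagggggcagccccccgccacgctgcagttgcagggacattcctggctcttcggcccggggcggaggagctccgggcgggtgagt
Both strands were searched for TGATGNAA as the composite element, CACGTG as the E-box and TATAAA as the TATA element. The nuclear receptor hexamer AGGTCA was searched as well, alone and as a pair of direct repeats 1 base apart. In Fgf21 the composite element matched on the minus strand as TTGCATCA at -139 to -132 from the start, CACGTG lay at -50 to -45 and TATAAA at -28 to -23. Among 32851 promoter windows of this length, 3.97% held TGATGNAA, 7.15% CACGTG and 13.6% TATAAA. Neither AGGTCA (16.3% of windows) nor the spaced pair (0.0396%) was found in the Fgf21 window. Only this window and exact matches were searched, so sites further away or with altered letters would be missed. The Klb, Fgfr4 and both Fgfr3 windows held none of these patterns, and the Fgfr2 window held CACGTG at 28 to 33. A match describes letters only and is not evidence of binding.

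Levels below are log2 processed intensity relative to the 75th percentile of the gene probes on the same array, so a level of 0 means that the probe was as bright as that percentile. A level belongs to 1 probe and is not set against that of another. Probes of a gene are numbered from the brightest. A difference was called at an adjusted p under 0.05 from limma, with the Benjamini-Hochberg adjustment over all 32037 probes. The 75th percentile lay at an intensity of 271 to 390 across the 24 arrays, 26985 to 34202 probes per array were well above background, and 0 spots were saturated. Standard errors of log2 changes had a median of 0.14 for a pair of groups and of 0.20 when the effects in both genotypes were compared.

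Ppara itself had 2 probes, starting at transcript bases 2273 and 7356. They may lie outside the deleted part, so they do not settle the genotype by themselves. On the brighter probe, LWT livers were at 6.24 ± 0.16 (SD, n = 6) with vehicle and 6.79 ± 0.28 with CL316243, and LKO livers at 5.57 ± 0.15 and 4.88 ± 0.65. The LKO range lay below the LWT range under both treatments. The lowest Ppara level, 3.61, was that of LKO CL316243 replicate 3, whose next lowest group mate was at 4.91. Its array had 27921 probes well above background, toward the low end of the 26985 to 34202 over all arrays. Whether that bears on its levels was not tested. Some results below are given with and without that mouse. The 6 hepatocyte markers (Alb, Ttr, Apoa1, Cps1, Ass1 and Hnf4a) were well above background on all arrays, and their summed level lay between 11.6 and 12.0 across all 24 livers.

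Fgf21 rose with CL316243 in both genotypes and was lower in LKO than in LWT under both treatments. In LWT vehicle livers the level ran from -1.89 through a median of -0.95 to 1.22, and in LWT CL316243 livers from 3.32 through 4.22 to 5.30. In LKO vehicle livers the probe was not well above background on any of the 6 arrays, with measured values of -7.08 to -5.20 around a median of -5.87. In LKO CL316243 livers it was well above background on 6 of 6 arrays, from -1.34 through 0.56 to 2.69. The highest group was thus LWT CL316243, in which no mouse overlapped any other group, and the lowest was LKO vehicle, which also stood clear of the rest. LKO CL316243 and LWT vehicle lay between and overlapped; this pair was not tested.

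On the scanner's own scale, the median Fgf21 intensity went from 189 with vehicle to 5798 with CL316243 in LWT, and from 5.49 to 481 in LKO. The Fgf21 probe covers bases 52869305 to 52869364 of chromosome 7 (all probe positions are in build mm9) and starts at base 842 of its transcript. The agonist effect in LWT was 5.03 on the log2 scale (SE 0.57, 32.8-fold, adjusted p 5.14e-07, 6 of 6 treated mice above the vehicle mean). Only 17 of the 32037 probes rose by a larger fitted amount. Because LKO vehicle was at background, the effect in LKO has only a lower bound: Fgf21 was at least 29.6-fold higher with CL316243 (fitted log2 change 6.68, adjusted p 3.60e-08). The bound sets the level of each LKO vehicle array at its dimmest signal well above background, which averaged -4.30. It holds for this normalization: with normexp background correction the log2 change in LKO was 3.24 (adjusted p 6.80e-06), a smaller rise than the bound. The difference between both effects was not called (1.65, 95% confidence interval -0.01 to 3.30, adjusted p 0.266), and its fitted size rests on the LKO vehicle values below that floor. Its sign turned to -1.32 with normexp background correction and to -0.72 in the deposited series table, with adjusted p of 0.245 to 0.617 over 11 alternatives.

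Between genotypes, LKO vehicle livers held at least 11.5-fold less Fgf21 signal than LWT vehicle livers (fitted -5.31, adjusted p 3.02e-06). This bound too holds only for this normalization. With normexp correction the log2 difference was -2.11 (adjusted p 0.0143), smaller than the bound. Under CL316243 the difference was -3.67 (SE 0.57, 12.7-fold, adjusted p 5.99e-05), with all 6 LKO mice below the LWT mean. Within each of the 3 slides, which held 2 mice of every group, the agonist effect was 4.71 to 5.60 in LWT and 5.92 to 8.11 in LKO. The genotype difference under CL316243 ran from -5.58 to -1.86 across slides, always in the same direction. With slide as a block, the 4 differences between groups stayed called, with adjusted p of 1.73e-07 to 1.50e-04.

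Markers of other cell types were read on the same arrays, since a liver RNA sample mixes cells, and fewer cells of a type cannot be told apart from less RNA per cell. All 6 markers each of stellate, endothelial and Kupffer cells were detected in every group and their summed levels overlapped among the groups, while single markers differed in both directions. Among endothelial genes, Lyve1 rose with CL316243 (1.18 in LWT, adjusted p 0.00805, and 2.39 in LKO, adjusted p 1.19e-05), Pecam1 rose in LWT (0.49, adjusted p 0.00675) and Kdr fell in LKO (-0.56, adjusted p 0.00663). Among stellate genes, Colec11 rose (0.33, adjusted p 0.0243) and Lrat fell (-0.71, adjusted p 0.0113) in LWT, and of the 6 Kupffer genes none was called. The summed level of 6 bile duct cell markers was 2.46 to 3.27 with vehicle and 2.67 to 4.37 with CL316243 in LWT, and 2.39 to 3.31 and 3.40 to 4.37 in LKO, where treatments did not overlap. Of these, Sox9 rose in both genotypes (1.47, adjusted p 0.00164, and 2.18, adjusted p 3.41e-05) and Spp1 in LKO (0.96, adjusted p 0.00557), while Krt19, Krt7, Epcam and Cftr were not called.

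The pancreas also expresses Fgf21. Of 7 acinar cell markers, Prss2 was well above background on 0 arrays and Cpa1 and Pnlip on 0 or 1 of 6 in each group; Amy2a5 was higher in LKO under vehicle (0.59, adjusted p 0.0104), rose with CL316243 in LWT (0.34, adjusted p 0.0283) and fell in LKO (-0.37, adjusted p 0.0180), a called difference between effects (-0.71, adjusted p 0.0135), and Ctrb1 fell in both genotypes (-0.33, adjusted p 0.00607, and -0.31, adjusted p 0.00936). The summed acinar level was 5.17 to 5.65 with vehicle and 4.92 to 5.68 with CL316243 in LWT. In LKO it was 5.63 to 5.89 and 5.17 to 5.57, where treatments did not overlap. That sum rests mostly on Cela1, whose group means were 4.96 to 5.42 and which, like Cel, was not called. Of 6 genes listed as fat cell markers, Adipoq was well above background on 0 to 3 arrays of a group. Cidea rose in both genotypes (2.41, adjusted p 2.35e-05, and 1.08, adjusted p 0.0225), while Plin1, Lep and Retn were not called. Cfd was lower in LKO than in LWT under vehicle (-3.60, adjusted p 0.0161) and CL316243 (-2.35, adjusted p 0.0401), and Cidea was lower in LKO under CL316243 (-2.08, adjusted p 2.91e-04). The summed fat marker level was 0.41 to 1.46 with vehicle and 0.62 to 1.32 with CL316243 in LWT, and 0.06 to 0.74 and 0.16 to 1.31 in LKO. The part of bile duct, acinar or fat cell RNA in the results for the members was not tested.

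**Figure D1:**
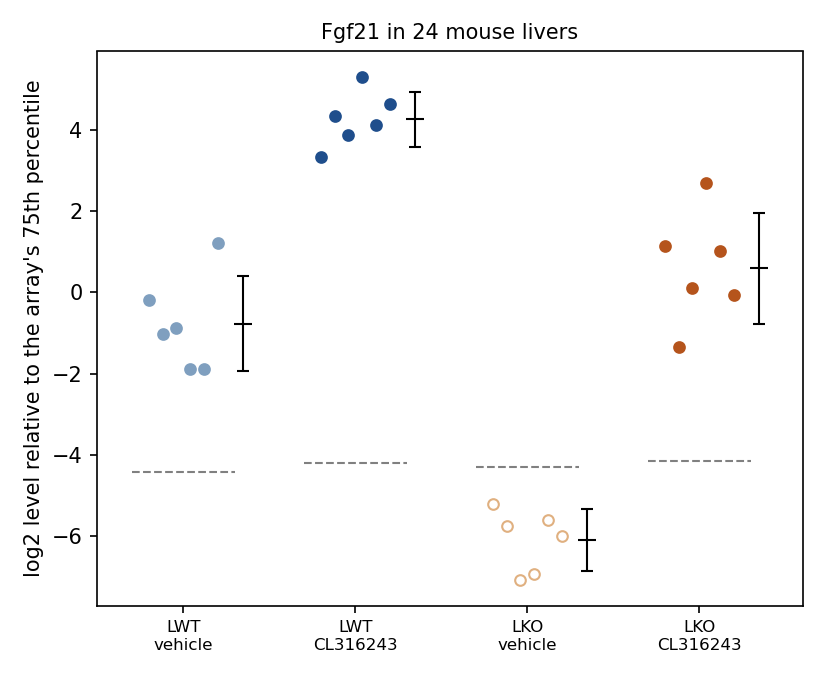
Fgf21 level in each of the 24 livers, as log2 intensity relative to the array's 75th percentile, for the 4 groups of 6. Filled points were well above background and open points were not; the bar beside each group is the mean ± SD and the dashed line the mean over arrays of the dimmest signal well above background. All 6 LKO vehicle values lie below that line, and the LWT CL316243 values, from 3.32 to 5.30, lie above all others.

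Fgf1, a ligand that activates all FGF receptors, rose with CL316243 in LWT livers on its 2 brighter probes, and on both the effect differed between genotypes. Its 3 probes start at bases 3839, 1572 and 222 of the transcript (chromosome 18, between 38998337 and 39018333). On probe 1, LWT vehicle ran from 4.91 through 5.11 to 5.44, LWT CL316243 from 5.56 through 5.89 to 6.33, LKO vehicle from 4.97 through 5.28 to 5.35 and LKO CL316243 from 4.77 through 5.15 to 5.34. The LWT CL316243 mice lay above the other 18, which overlapped each other. The effect in LWT was 0.75 (SE 0.13, 1.68-fold, adjusted p 1.15e-04), against -0.14 in LKO (adjusted p 0.407, 95% confidence interval -0.42 to 0.13). The effects differed by -0.89 (adjusted p 0.00450), and under CL316243 LKO was lower by 0.83 on the log2 scale (difference -0.83, adjusted p 8.57e-05).

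Probe 2 of Fgf1 gave the same 4 signs, with 0.60 in LWT (adjusted p 1.76e-04), -0.30 in LKO (adjusted p 0.0311), a difference between effects of -0.90 (adjusted p 7.13e-04) and -0.82 between genotypes under CL316243 (adjusted p 8.36e-06). Its fall in LKO was no longer called without a filter on dim probes or when any of 5 LKO mice was left out (-0.29 to -0.24, adjusted p 0.0558 to 0.0843). Probe 3 was not called in LWT (0.38, adjusted p 0.111) and was called lower in LKO (-0.47, adjusted p 0.0467), a call lost in 19 of 24 fits with 1 mouse left out and with slide as a block (adjusted p 0.0520). Its difference between effects, -0.85, did not pass (adjusted p 0.0567), while its genotype difference under CL316243 did (-0.82, adjusted p 0.00315). Under vehicle the genotypes differed by 0.03 to 0.07 on the 3 probes, and none was called. Across slides, the difference between effects was -1.16 to -0.47 on probe 1 and -1.07 to -0.75 on probe 2.

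Klb, which encodes the coreceptor that gives FGF21 and FGF15 their target cells, fell with CL316243 in LWT livers. Probe 1 starts at base 3122 of the transcript (chromosome 5, 65774926 to 65774985). LWT vehicle ran from 1.17 through 1.31 to 1.42, LWT CL316243 from -0.62 through -0.08 to 0.65, LKO vehicle from 0.90 through 1.21 to 1.55 and LKO CL316243 from -0.16 through 0.95 to 1.56. The LWT CL316243 mice lay below every vehicle mouse, while LKO CL316243 spread from below the vehicle range to its top. The change in LWT was -1.28 (SE 0.22, 2.42-fold, adjusted p 1.03e-04), with all 6 treated mice below the vehicle mean. In LKO it was -0.36 (95% confidence interval -0.82 to 0.10, adjusted p 0.201).

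Under CL316243, Klb was higher in LKO than in LWT by 0.81 (adjusted p 0.0137, 5 of 6 LKO mice above the LWT mean), a call that was lost when only those 12 arrays were fitted (adjusted p 0.10). The difference between the agonist effects was 0.91 and did not pass (adjusted p 0.0932). LKO CL316243 replicate 3, the mouse with the lowest Ppara level, also had the lowest Klb level of its group, -0.16. Without it, Klb was at -0.17 with CL316243 in LKO (adjusted p 0.536), the genotype difference under CL316243 was 1.01 (adjusted p 5.88e-04), and the difference between effects was 1.11 and passed (adjusted p 0.0110). The latter also passed without LWT CL316243 replicate 4 (1.04, adjusted p 0.0464). Across slides the effect in LWT was -1.41 to -1.02.

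The other Klb probe, which starts at base 1835, was dim: it was well above background on 4 of 6 LWT vehicle, 0 of 6 LWT CL316243, 3 of 6 LKO vehicle and 0 of 6 LKO CL316243 arrays. Only LWT vehicle reached the 4 of 6 arrays needed for testing, so the probe was kept through the group where it was highest. It was called lower in LWT (adjusted p 0.00141), where the measured means were -3.92 and -5.72, a call not independent of that filter. Only a fall of at least 1.21-fold could be set, and this bound rests on LWT vehicle replicate 4, at -1.70. The next highest value of LWT vehicle was -3.94 and its median -4.16. In LWT CL316243 the dimmest signal well above background averaged -4.20. In LKO the probe was not called (adjusted p 0.136), with a bound of 1.03-fold. The measured direction was that of probe 1 in all 5 comparisons, but values this dim, kept through LWT vehicle alone, give no separate support.

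Fgfr4, the main FGF receptor of hepatocytes, fell in both genotypes and by more in LWT. Probe 1 starts at base 3058 of the transcript (chromosome 13, 55270033 to 55270092). LWT vehicle ran from 3.90 through 4.00 to 4.24, LWT CL316243 from 2.52 through 2.98 to 3.52, LKO vehicle from 3.86 through 4.06 to 4.27 and LKO CL316243 from 3.44 through 3.66 to 3.92. The vehicle groups overlapped almost fully, LWT CL316243 lay clear below both, and LKO CL316243 lay between, touching each neighbour's range. The change was -1.05 in LWT (SE 0.13, 2.07-fold, adjusted p 1.28e-06) and -0.39 in LKO (SE 0.13, 1.31-fold, adjusted p 0.0173). The effects differed by 0.66 (SE 0.18, adjusted p 0.0280), and LKO exceeded LWT by 0.70 under CL316243 (adjusted p 3.74e-04). Under vehicle the genotypes differed by 0.04 (95% confidence interval -0.23 to 0.30, adjusted p 0.993).

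Probe 2 of Fgfr4 starts at base 3002 and shares a few bases with probe 1, so both read nearly the same site. It gave -1.01 in LWT (adjusted p 1.83e-06), -0.36 in LKO (adjusted p 0.0241), 0.65 for the difference between effects (adjusted p 0.0293) and 0.73 between genotypes under CL316243 (adjusted p 2.06e-04). The call for the difference between effects was lost with no filter on dim probes, at an adjusted p of 0.0696 on probe 1 and 0.0733 on probe 2. It was also lost, narrowly, when single mice were left out: 3 of 24 on probe 1 and 5 of 24 on probe 2 (adjusted p up to 0.0539). Across slides it was 0.53 to 0.80 on probe 1. Probe 3, which reads chromosome 13 at 55269360 to 55269419 through another transcript record, fell in LWT (-0.58, adjusted p 6.93e-04). In LKO it was -0.27 (adjusted p 0.0871), and the difference between effects, 0.31, did not pass (adjusted p 0.340).

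Fgfr3 fell with CL316243 in both genotypes by similar fitted amounts. Probe 1 starts at base 4176 of the transcript (chromosome 5, 34079649 to 34079708). LWT vehicle ran from 2.64 through 3.26 to 3.74, LWT CL316243 from 1.58 through 1.79 to 2.71, LKO vehicle from 3.18 through 3.53 to 3.80 and LKO CL316243 from 1.45 through 2.36 to 3.28. The treated groups lay mostly below the vehicle groups, with a narrow overlap in each genotype. The change was -1.29 in LWT (SE 0.26, 2.44-fold, adjusted p 4.63e-04) and -1.19 in LKO (SE 0.26, 2.29-fold, adjusted p 8.97e-04). The effects differed by 0.09 (95% confidence interval -0.67 to 0.85, adjusted p 0.928), an interval that spans both directions.

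Probe 2 of Fgfr3, at base 2558, fell by 1.17 on the log2 scale in LWT (change -1.17, adjusted p 0.00228) and by 1.46 in LKO (change -1.46, adjusted p 2.79e-04). It was well above background on 5 or 6 arrays of every group. The size of the change on probe 1 varied among slides, from -1.80 to -0.38 in LWT and from -1.83 to -0.77 in LKO. Probe 3 was at background and was not tested.

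Fgfr1, the receptor through which FGF21 acts in adipose tissue, was called in 1 comparison, on 1 probe. On probe 1 (base 3906, chromosome 8, 26685072 to 26685131), LWT vehicle ran from 1.30 through 1.72 to 1.86, LWT CL316243 from 0.94 through 1.17 to 1.75, LKO vehicle from 1.20 through 1.68 to 2.0 and LKO CL316243 from 1.16 through 1.58 to 1.81. Every pair of groups overlapped. The change in LWT was called (-0.46, SE 0.15, 1.37-fold, adjusted p 0.0186), with 5 of 6 treated mice below the vehicle mean, and that in LKO was not (-0.11, adjusted p 0.578). The difference between effects was 0.35 (adjusted p 0.402). Probe 2 was dim and not called in any comparison, and probes 3 and 4 were at or near background and not tested.

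Fgfr2, a receptor with splice forms of epithelial and mesenchymal cells, was also called in 1 comparison, on 1 probe. On probe 1 (base 3630, chromosome 7, 137307473 to 137307532), LWT vehicle ran from -1.66 through -1.50 to -1.23, LWT CL316243 from -1.37 through -1.20 to -0.76, LKO vehicle from -1.73 through -1.35 to -1.07 and LKO CL316243 from -1.65 through -1.31 to -1.06. All 4 ranges overlapped. The rise in LWT was 0.34 (SE 0.12, 1.26-fold, adjusted p 0.0329) and the value in LKO 0.04 (adjusted p 0.820). It did not stay called under 4 of 12 alternatives (adjusted p over the 12 from 0.0274 to 0.0718) or in 5 of 24 fits with 1 mouse left out. Probe 2 was well above background on 0 to 4 arrays of a group and was not called in LWT (0.76, adjusted p 0.0886) or LKO (adjusted p 0.0952), where no vehicle array was above background and the difference has only a lower bound, 1.13-fold.

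**Figure D2:**
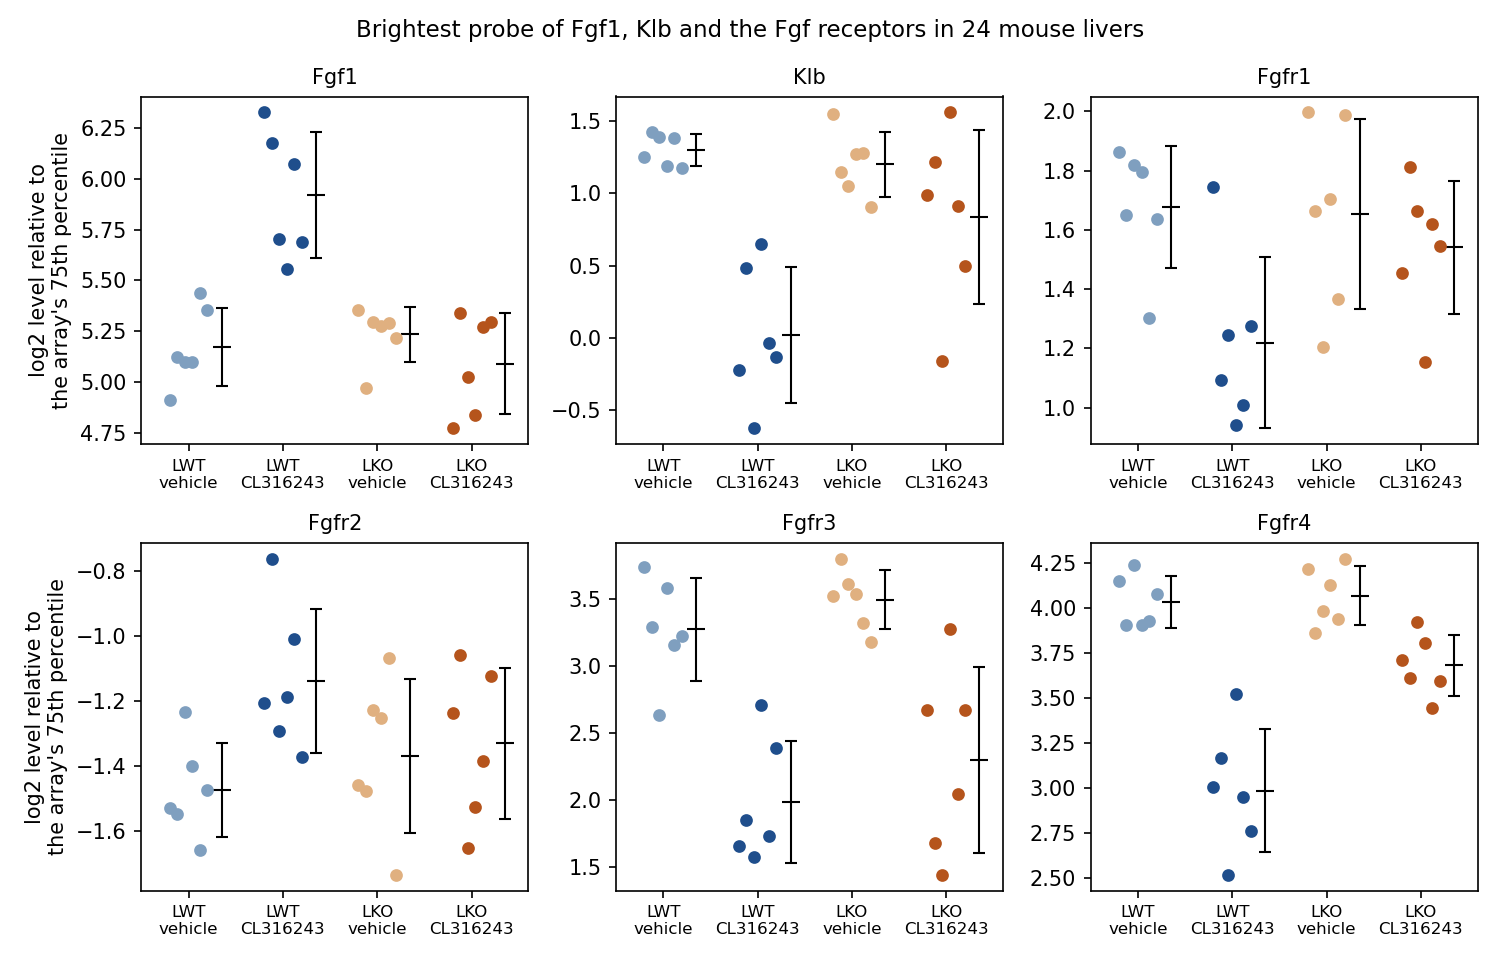
Levels of the brightest probe of Fgf1, Klb, Fgfr1, Fgfr2, Fgfr3 and Fgfr4 in each of the 24 livers, as log2 intensity relative to the array's 75th percentile, with mean ± SD beside each group and a separate vertical scale for each gene. LWT CL316243 stands above the other groups for Fgf1 and at or below them for Klb and Fgfr4, while both treated groups are lower for Fgfr3.

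Counted over the 15 tested probes, the agonist effect in LWT was called higher for 4 and lower for 8, against 19.3% higher and 18.3% lower among all probes tested (37.6% either way). In LKO it was called higher for 1, Fgf21, and lower for 6, against 20.9% and 19.9% (40.9% either way). The 6 treated and 6 vehicle values did not overlap for 8 probes in LWT and 2 in LKO, where 19.8% and 20.7% of all probes had no overlap. Without the filter on dim probes, 3 rather than 6 were lower in LKO. The probes of a gene share their target, so these counts are not counts of independent events. The 8 called lower in LWT include Klb probe 2, which was kept for testing only through LWT vehicle, where it was highest. The difference between effects was called for 4 probes, 2 of Fgf1 with the lower effect in LKO and 2 of Fgfr4 with the higher, against 5.91% of all probes (2.08% higher and 3.83% lower). Under vehicle the genotypes differed for 1 of the 15, Fgf21, lower in LKO and without overlap. Of all probes, 1.1% were called there (0.418% higher, 0.677% lower) and 1.77% had no overlap. Under CL316243, 4 probes were higher in LKO, of Klb and Fgfr4, and 4 lower, of Fgf21 and Fgf1, where 15.3% of all probes were called (7.02% higher, 8.28% lower). In that comparison 4 of the 15 probes had no overlap, against 6.55% of all.

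**Figure D3:**
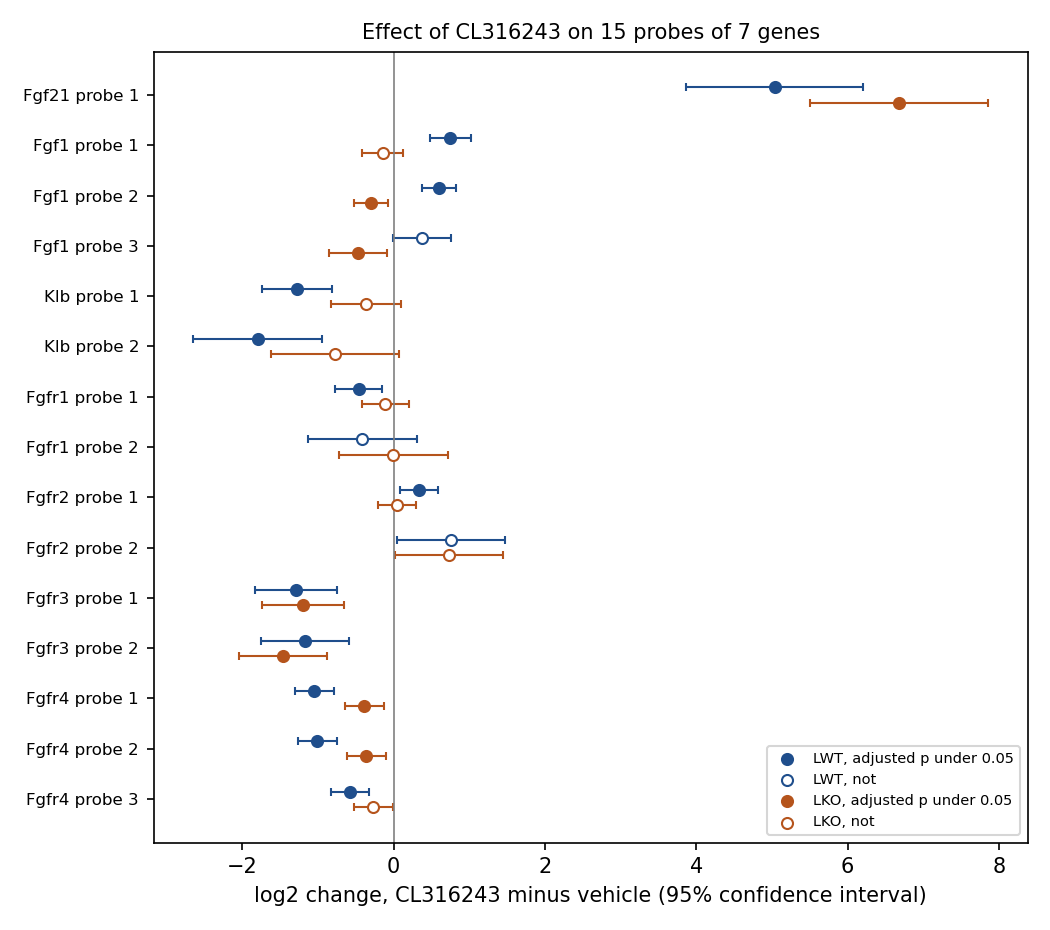
Change in log2 level with CL316243 for the 15 tested probes, in LWT (blue) and LKO (orange), with 95% confidence intervals. Filled points passed an adjusted p of 0.05 and open points did not. Fgf21 is plotted at its fitted LKO change of 6.68, which stands for a rise of at least 29.6-fold under this normalization. With normexp background correction that log2 change was 3.24. The Fgf1 probes lie on opposite sides of 0 in the genotypes, and the Fgfr4 points are further from 0 in LWT.

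Of the 20 other Fgf ligands, 8 could be tested, and the remaining 12, Fgf15 among them, were too dim. In LWT livers Fgf23, the phosphate-regulating hormone of bone, rose by 0.61 (adjusted p 0.00877) and Fgf11, an intracellular family member, fell by 0.91 on the log2 scale (change -0.91, adjusted p 0.00214). None of the 8 was called in LKO, or between genotypes. Of all probes, 37.6% were called in LWT and 40.9% in LKO. Between genotypes, 1.1% of all probes were called under vehicle and 15.3% under CL316243. The median change over the 8 was -0.04 in LWT and 0.16 in LKO, beside 0.02 over all probes in each genotype.

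Of 16 other coreceptors and modulators of FGF signalling, 12 were tested. In LWT, 1 rose and 5 fell (median -0.35), and in LKO, 2 rose and 5 fell (median -0.07). Among all probes, 19.3% rose and 18.3% fell in LWT and 20.9% and 19.9% in LKO, the shares against which this and the following list counts stand. Flrt1, a membrane protein that binds FGF receptors, fell by 0.97 in LWT and 1.08 in LKO (changes -0.97, adjusted p 0.0251, and -1.08, adjusted p 0.0121). The heparan sulfate carrier Sdc1 rose in LWT (0.94, adjusted p 0.00198) and was at 0.23 in LKO (adjusted p 0.435), while Sdc4 rose in LKO (0.59, adjusted p 0.0202) and was at -0.23 in LWT (adjusted p 0.390). Neither difference between effects was called. Fap, the protease that inactivates human FGF21, rose in LKO (0.94, adjusted p 0.0244). Lctl, a Klotho relative, was called lower in LWT (adjusted p 0.0293, lost in 2 of 11 alternatives and 3 of 24 fits with 1 mouse left out), but 5 of 6 vehicle and 1 of 6 treated arrays were well above background and no size is given. Gpc3 was called lower in LKO (adjusted p 0.0300), a call lost in 3 of 11 alternatives (adjusted p up to 0.0573). With 4 of 6 vehicle and 0 of 6 treated arrays above background, no size can be given for Gpc3. Lctl was tested only through LWT vehicle and Gpc3 only through LKO vehicle, the groups where each was highest. Their falls, which enter the counts above, are thus not independent of the filter. Kl, the alpha-Klotho gene, was too dim to test.

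The intracellular relay was represented by 24 genes, all tested. In LWT, 11 rose and 3 fell, and in LKO, 10 rose and 2 fell, with medians of 0.21 and 0.25, where 37.6% and 40.9% of all probes were called either way. Stat3, a transcription factor of cytokine and growth factor signalling, rose by 1.01 in LWT (adjusted p 6.06e-04) and 1.73 in LKO (adjusted p 1.99e-06), and Pik3r1, a regulatory subunit of PI3-kinase, by 0.48 and 1.11 (adjusted p 0.0323 and 2.94e-05). The adaptor Frs2, which links FGF receptors to the Ras pathway, rose by 0.40 and 0.37 (adjusted p 9.93e-04 and 0.00183). Plcg1, the phospholipase recruited by FGF receptors, fell in both (-0.71, adjusted p 3.42e-04, and -0.97, adjusted p 1.44e-05), as did the kinase gene Mapk3 (-0.50, adjusted p 0.00160, and -0.36, adjusted p 0.0163). No difference between effects was called for the 24. Under CL316243, Grb14 (0.75, adjusted p 0.00840) was higher and Sos1 (-0.58, adjusted p 2.22e-04) and Map2k2 (-0.34, adjusted p 8.58e-04) lower in LKO. Frs2 was added to these names after its values were seen.

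Feedback inhibitors of the pathway rose where they were called: 4 of 11 tested genes in LWT and 5 in LKO, with none lower (medians 0.24 and 0.36). The share of all probes that rose was 19.3% in LWT and 20.9% in LKO. Dusp5, an ERK phosphatase, rose by 2.64 in LWT (SE 0.17, adjusted p 1.61e-10) and 1.60 in LKO (SE 0.17, adjusted p 5.57e-07), and the effects differed (-1.04, adjusted p 0.0111). Dusp4 rose by 0.65 and 1.43 (adjusted p 0.00883 and 4.76e-06), and Spred1, an inhibitor of Ras signalling, by 0.93 and 1.03 (adjusted p 1.84e-05 and 6.91e-06). Dusp6, a common readout of FGF signalling, was at 0.24 in LWT (adjusted p 0.420), rose by 0.98 in LKO (adjusted p 0.00101) and was higher in LKO under CL316243 (0.83, adjusted p 0.0104), but its difference between effects was not called.

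Genes that respond to ERK had a median change of 1.20 in LWT and 1.73 in LKO over 9 tested members. Among these, 6 rose in LWT and 5 in LKO, and none fell, against 19.3% and 20.9% of all probes that rose. The LWT count was 3 without LWT CL316243 replicate 3, and 1 gene was called lower in LWT with a replicate block and without either LWT CL316243 replicate 4 or LKO CL316243 replicate 3. Egr1 rose by 2.30 (adjusted p 0.00260) and 3.90 (adjusted p 1.47e-05), and Fos by 1.48 (adjusted p 0.0343) and 3.10 (adjusted p 1.05e-04). Myc rose in LWT (2.0, adjusted p 6.01e-04) and was at 0.08 in LKO (adjusted p 0.891), but its difference between effects was not called. Etv4, an ETS factor, rose in LWT (1.20, adjusted p 8.08e-06) but was at -0.13 in LKO (adjusted p 0.570), a difference that was called (-1.33, adjusted p 9.94e-04). Egr2 went the other way, at 0.61 in LWT (adjusted p 0.137) and 2.25 in LKO (adjusted p 1.09e-05), with a difference of 1.64 (adjusted p 0.0291). It was well above background on 3 of 6 arrays in all groups but LKO CL316243, so it was tested only through that group, where it was highest. Its rise in LKO, which enters the LKO count above, and its difference between effects are thus not independent of the filter. The call for that difference was lost without the filter on dim probes (adjusted p 0.0643) and in 4 of 24 fits with 1 mouse left out. With normexp correction the difference was 0.62, still called. These genes respond to many stimuli besides FGFs.

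The list of FGF15 responses through Fgfr4 and Klb held 3 genes: Cyp7a1, the rate-limiting enzyme of bile acid synthesis, Cyp8b1, which sets bile acid composition, and the repressor Nr0b2. Cyp7a1 fell in both genotypes, with mean levels of 3.14 and 3.48 under vehicle in LWT and LKO against -4.94 and -4.30 with CL316243 (adjusted p 6.08e-08 and 2.55e-07). It was well above background on 2 of 6 treated arrays in each genotype, so the size of that fall is uncertain. Cyp8b1 fell in LKO (-2.36, adjusted p 1.67e-05) and was at -0.78 in LWT (adjusted p 0.0808). Nr0b2 was called lower in LWT (-1.35, adjusted p 0.0478) and was at -0.92 in LKO (adjusted p 0.174). The LWT call was not kept in 4 of 12 alternatives, slide as a block among them (adjusted p 0.000796 to 0.0885), or in 16 of 24 fits with 1 mouse left out. No difference between effects was called for the 3.

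Among 7 growth hormone axis genes linked to FGF21, 1 rose and 2 fell in LWT, and 2 rose and 2 fell in LKO. Of all probes, 37.6% and 40.9% were called either way, and 7 genes are too few to set these counts apart from those shares. Igfbp1, an insulin-repressed binding protein for IGF1, rose by 3.64 (adjusted p 1.83e-04) and 4.53 (adjusted p 1.87e-05), and Igfals, the acid-labile subunit that stabilises IGF1 in blood, fell (-1.68, adjusted p 5.87e-08, and -1.65, adjusted p 1.98e-07). Stat5b, the growth hormone signal transducer, fell in LWT (-0.36, adjusted p 0.00441) and rose in LKO (0.65, adjusted p 1.56e-05), a difference of 1.01 (adjusted p 3.49e-05). Ghr, the growth hormone receptor, fell in LKO (-0.27, adjusted p 0.0104). Igf1, named outside the rule, was at 0.09 and 0.21 (adjusted p 0.617 and 0.192).

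All 20 regulators of Fgf21 transcription on the list were tested. In LWT 6 rose and 6 fell (median 0.27), and in LKO 6 rose and 8 fell (median 0.10), beside 37.6% and 40.9% of all probes called either way. The count higher in LWT was 3 with normexp correction and without LWT CL316243 replicate 1, and the count lower in LKO was 3 without LKO CL316243 replicate 3 and 5 without LKO CL316243 replicate 5. Ppara rose in LWT (0.55, adjusted p 0.0374), fell in LKO (-0.69, adjusted p 0.00979, and -0.43 without LKO CL316243 replicate 3, adjusted p 0.00720), and its effects differed by -1.24 (adjusted p 0.0110); the rise in LWT did not stay called in 5 of 12 alternative settings, whose adjusted p ran from 0.00460 to 0.0913. Creb3l3, a hepatic partner of PPARα at Fgf21, rose in LWT (0.89, adjusted p 1.59e-05) and was at 0.17 in LKO (adjusted p 0.313), and the effects differed (-0.72, adjusted p 0.0215). It was named after its values were seen, as were Atf4 and Mlxipl below.

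Atf3, a stress-induced transcription factor, rose by 1.73 in LWT (adjusted p 0.0203; 1.1 and no longer called, adjusted p 0.0624, with normexp correction) and 2.86 in LKO (adjusted p 4.08e-04). Ddit3 was at 0.45 in LWT (adjusted p 0.138) and rose by 1.56 in LKO (adjusted p 2.50e-05). Atf4, whose protein binds composite elements as a class, was at 0.30 in LWT (adjusted p 0.197) and rose by 0.82 in LKO (adjusted p 0.00105). Binding at Fgf21 was not tested. Under CL316243, Ddit3 was higher in LKO than in LWT by 1.23 (adjusted p 7.25e-04) and Atf4 by 0.54 (adjusted p 0.0461), though neither difference between effects was called. Nfil3, a repressor of the clock output, rose by 1.13 and 1.68 (adjusted p 0.0212 and 0.00110).

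Both PGC-1 coactivators responded differently in the genotypes. Ppargc1a, a coactivator of fasting metabolism, fell in LWT (-1.47, adjusted p 0.00552) and was at 0.62 in LKO (adjusted p 0.223), with a difference of 2.09 (adjusted p 0.0277). The call for that difference was lost in 1 of 11 alternatives (adjusted p 0.0610). Ppargc1b was at 0.31 in LWT (adjusted p 0.553) and fell in LKO (-1.83, adjusted p 4.39e-04), with a difference of -2.13 (adjusted p 0.0152). The clock repressor Nr1d1 was at 0.74 in LWT (adjusted p 0.167), fell in LKO (-1.05, adjusted p 0.0453) and was lower in LKO under CL316243 (-2.07, adjusted p 9.59e-04). For Nr1d1 the difference between effects was not called. Its fall in LKO did not hold in 5 of 12 alternatives (adjusted p 0.0391 to 0.105) or in 14 of 24 fits with 1 mouse left out, and was -0.68 without LKO CL316243 replicate 3. Sirt1, a deacetylase, rose in both and by more in LKO (difference 0.53, adjusted p 0.00708). Mlxipl, the carbohydrate-response factor, fell in both (-0.80, adjusted p 3.57e-05, and -0.37, adjusted p 0.0224). None of the 20 differed between genotypes under vehicle on its brightest probe; the second Ppara probe did (-0.92, adjusted p 0.0196).

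**Figure D4:**
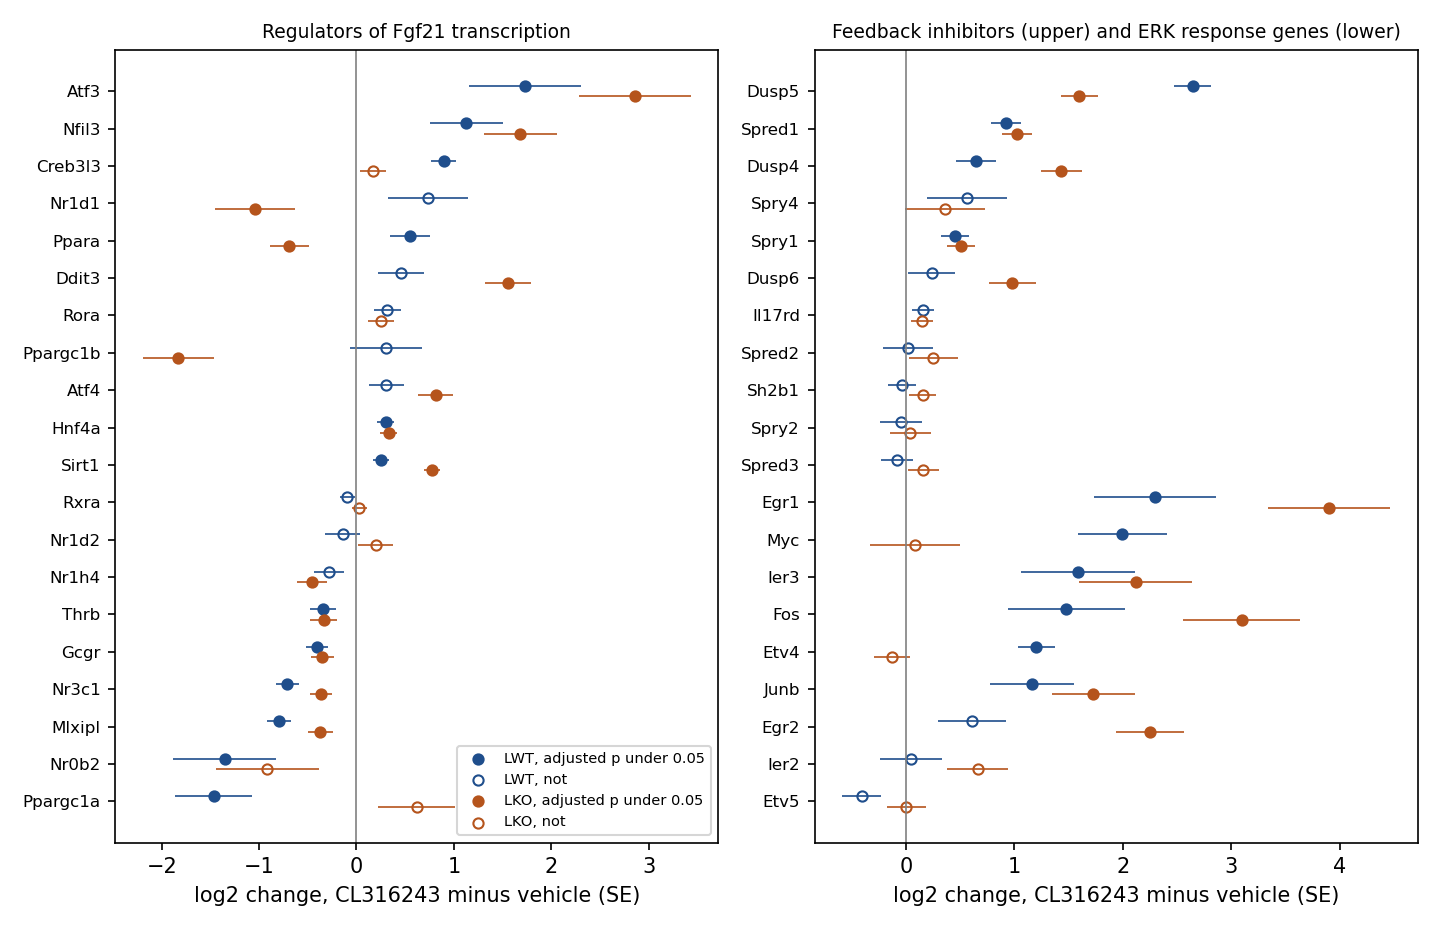
Change in log2 level with CL316243 (± SE) in LWT (blue) and LKO (orange) for the 20 regulators of Fgf21 transcription, left, and the 11 feedback inhibitors and 9 ERK response genes, right, each group sorted by its LWT change. Filled points passed an adjusted p of 0.05 and open points did not. Atf3 (1.73 and 2.86) and Egr1 (2.30 and 3.90) are higher in both genotypes, and Ppargc1a and Ppargc1b lie on different sides of 0 in the genotypes.

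Genes whose level most resembled that of Fgf21 over the 24 arrays were picked by Pearson's r and are given as a description. Among them were Klf11, a Krüppel-like factor (r 0.94), Iba57, an iron-sulfur protein (0.93), Agpat9, an acyltransferase now named Gpat3 (0.92), and Pxmp4, a peroxisomal membrane protein (0.91). These 4 rose in both genotypes and were lower in LKO under both treatments, Agpat9 by the most (4.67 in LWT and 3.74 in LKO). Sharing this pattern with Fgf21 follows from the way they were picked and is not a separate result. With the group means removed, r with Fgf21 was 0.28, -0.14, 0.02 and 0.20 in that order, so the likeness lay mostly between groups. For Klb the 3 most alike were Agfg2 (r 0.93), Ahsa2 (0.92) and Tbl1x (0.92), and there r within groups stayed at 0.80, 0.83 and 0.78.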

How the data were processed

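Liver RNA of 24 mice was labelled with Cy3 from 200 ng each and read on Agilent arrays, on 3 slides that each held 2 mice of every group. Groups follow the labels' genotype and treatment. The authors deposited a processed intensity per spot, background-subtracted and linear; per the file headers it came from Agilent Feature Extraction, version 10.10.1.1. The series table of log2 values that the authors deposited served as an alternative only.

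Spots marked as outliers were removed (2156 values), intensities were put on a log2 scale, replicate spots were averaged, and the 75th percentile of gene probes was subtracted within each array. A probe was kept when 4 or more of the 6 arrays in some group had it well above background and every group had 3 or more values. Group means were fitted for all kept probes in limma 3.58.1 (R 4.3.3) with moderated variances (residual df 20, prior df 2.27), and p-values were adjusted by Benjamini-Hochberg over these probes in each comparison. The script was tested on simulated data. For a list, each gene was read by its brightest kept probe. Where no array of a group had a probe well above background, folds are lower bounds: per array, the larger of the dimmest signal above background and the measured value stood in.

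Named were all member probes, Ppara, up to 2 called genes in each direction per list and comparison, and the genes most correlated with Fgf21 (5, of which 1 is not reported here) and Klb (3). The members and lists were chosen with earlier results of these data known. Labels do not state that replicate numbers mark litters or days. With group means removed, same-numbered mice had a mean correlation per number of -0.03 to 0.15, with single pairs from -0.17 to 0.42. A replicate block raised the count of called probes in every comparison, from 1892 to 2055 for the difference between effects. These values do not decide whether the numbers pair mice. Probe positions are mm9, promoter windows GRCm38.p6. Alternatives covered normalization, background correction, the series table, the filter, 1 probe per gene, slide, row and replicate terms, the arrays fitted, moderation, and leaving out each mouse.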

Additional observations from a re-analysis of the deposited data

Results flagged for a closer look

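The agonist effect differed between genotypes, by a test of the difference itself, for 2 probes of Fgf1 and 2 of Fgfr4. Subtracting the LWT effect from the LKO effect gave -0.89 on Fgf1 probe 1 and -0.90 on Fgf1 probe 2, and 0.66 on Fgfr4 probe 1 and 0.65 on Fgfr4 probe 2 (limma, adjusted p 0.00450, 7.13e-04, 0.0280 and 0.0293).

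In 3 of 60 groups of 6 mice, 1 mouse lay far from the others by Dixon's criterion, which chance alone exceeds in about 1 of 20 groups. These were LKO vehicle replicate 2 on Fgf1 probe 1 (level 4.97), LWT vehicle replicate 4 on the dim Klb probe 2 (-1.70) and LKO CL316243 replicate 3 on Fgfr4 probe 3 (-0.63). Without LWT vehicle replicate 4, the fitted change of Klb probe 2 in LWT was -1.35 (limma, adjusted p 0.00144). With 0 of 6 treated arrays well above background, that value is not a size, and the bound of 1.21-fold rests on this mouse.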

How the results depend on the processing

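Up to 12 alternative settings and 24 fits with 1 mouse left out were run for the member probes, Ppara and the list genes named by rule, and among these no called result turned its direction. Creb3l3, Frs2, Atf4, Mlxipl, Igf1, the genes most like Fgf21 or Klb and the cell type markers were not rerun by name. The Fgf21 calls for the agonist in each genotype and between genotypes under each treatment held in all of them, at 4.56 to 5.03 in LWT, 3.24 to 6.68 in LKO, -5.32 to -2.11 between genotypes under vehicle and -3.67 to -3.43 under CL316243 over the alternatives. The smallest sizes came with normexp background correction, which raises values near background. Among all probes, the count called for the difference between effects was 1892 and became 1099 with no filter on dim probes and 1152 with 1 probe per gene. The count between genotypes under vehicle was 351 and became 221 with no filter, that for the agonist in LKO was 13091 and became 8566 with 1 probe per gene, and that between genotypes under CL316243 was 4900 and became 3205 with only those groups fitted. Fewer probes are tested with 1 probe per gene and fewer arrays enter the last fit. For the filter the cause was not tested. Without LKO CL316243 replicate 3, the counts were 13125 for the agonist in LWT and 11912 in LKO. They were 2436 for the difference between effects, 432 between genotypes under vehicle and 5658 under CL316243. Over all results, 1596 values under the alternatives kept their side of the threshold, 45 lost a call and 12 gained one; with 1 mouse left out these numbers were 3347, 121 and 12. The labels do not say whether replicate numbers pair the mice; with a replicate block, the difference between agonist effects passed for Klb probe 1 (0.91, adjusted p 0.0411) and Fgf1 probe 3 (-0.85, adjusted p 0.0437). Without the filter on dim probes the median change of all probes was 0.12 in LWT and 0.10 in LKO. Signal over background limits the Fgf21 comparisons with LKO vehicle and those of Klb probe 2 with CL316243 and Fgfr2 probe 2 in LKO, for which sizes are bounds.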
